A study of Homo sapiens with 10 samples.

Results

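The 10 genes described here are markers by which mesenchymal cells and fibroblasts are commonly recognised, namely FAP, THY1, VIM, S100A4, PDGFRA, PDGFRB, AXL, ENG, MCAM and NT5E. They were taken by name, through their Entrez identifiers, from 23786 genes measured on 10 arrays, and all 10 were found. VIM and S100A4 encode proteins inside the cell and the others encode proteins at its surface. The cells were MCF10A, an immortal human breast epithelial line that does not form tumours, grown with 10 ng/mL of TGFβ1 for 4 h or for 1, 2, 3, 4, 5, 6, 8 or 12 days, or left untreated. Each time, and the untreated state, had 1 array, so no time had a replicate. By the methods of the study, all plates were starved of serum before a common harvest, the untreated plate included.

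TGFβ is a secreted cytokine that signals through paired receptor kinases and SMAD proteins, and in mammary epithelial cells it drives an epithelial-mesenchymal transition (EMT), in which cells loosen their junctions and take on mesenchymal traits. Markers of mesenchymal cells are a mixed group. They include a filament protein, a protease, growth factor receptors, a TGFβ co-receptor, adhesion molecules and an enzyme that makes adenosine, and they need not be switched on together.

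Values are log2 expression, so that 1 unit is a doubling. They were compared between 3 windows of time, with the late window made of days 5, 6, 8 and 12 (n = 4 arrays), the middle window of days 2 to 4 (n = 3) and the early window of untreated cells, 4 h and day 1 (n = 3). A gene was called in limma where its difference was 1 or more and its p, adjusted by Benjamini-Hochberg across the whole table, was no more than 0.05. The late and middle windows were each set against the same early arrays, so these comparisons are not independent. The SDs below are those of arrays at different times and hold both noise and change within a window. Because each array measured RNA from a whole culture, a change in the share of cells that express a gene and a change in RNA per cell cannot be told apart.

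Late in treatment, FAP, MCAM and ENG were higher and none of the 10 markers was lower. FAP rose by 2.82, MCAM by 1.83 and ENG by 1.59 relative to the early window. Of all genes, 2.92% were called higher and 1.64% lower in the same comparison. AXL stood at least 1 above untreated cells on every treated array, from 4 h on, and NT5E was high on the day 12 array alone. VIM, S100A4, THY1, PDGFRA and PDGFRB were not called in any comparison.

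**Figure D1:**
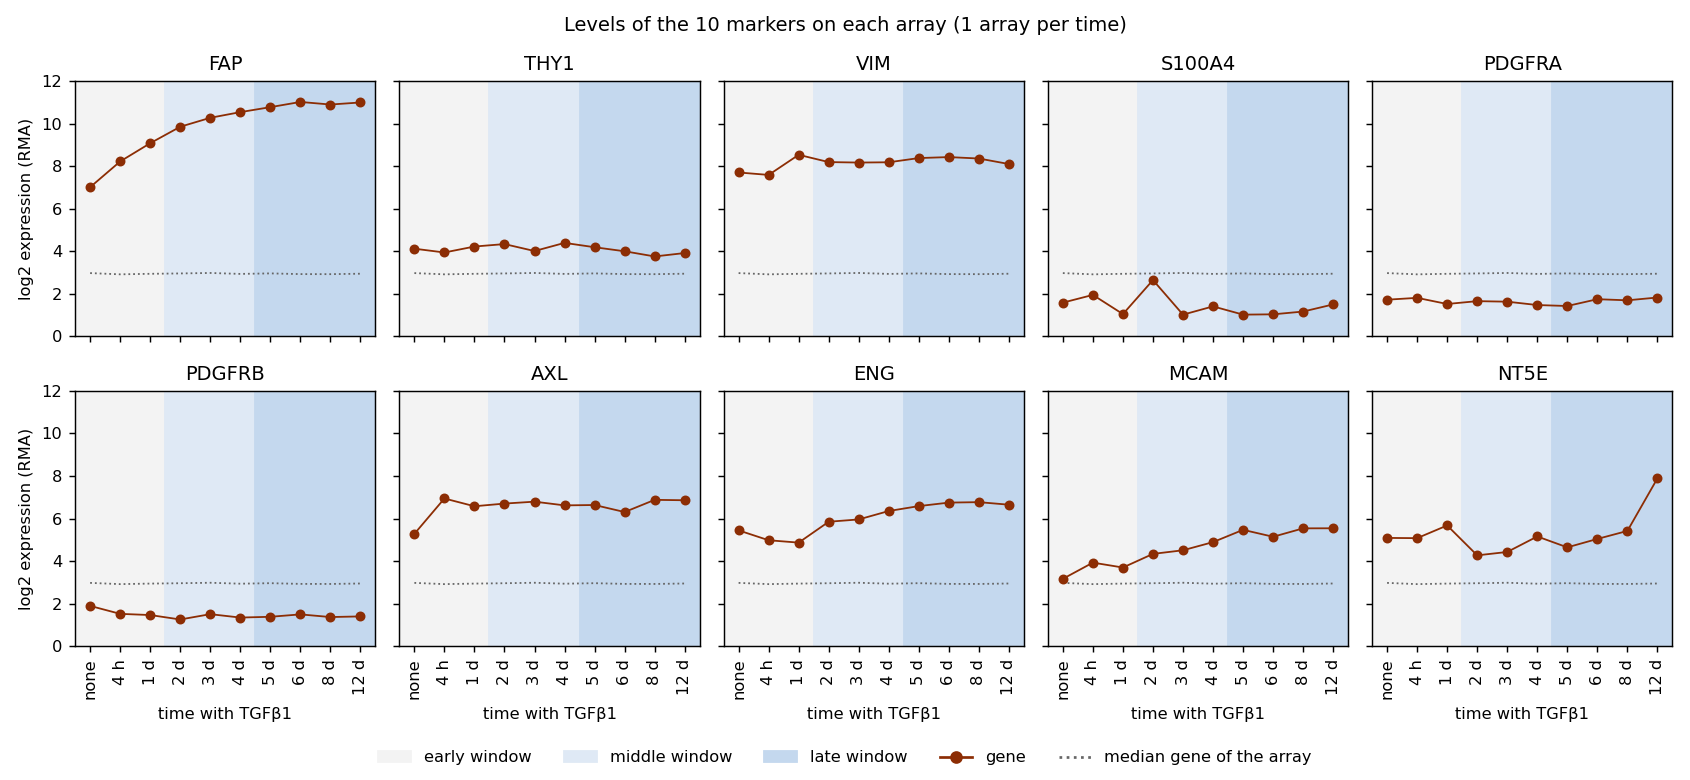
Log2 expression (vertical axis) of each of the 10 markers on the 10 arrays, in order of time with TGFβ1 (horizontal axis, evenly spaced and not to scale). Points are single arrays, shading marks the early, middle and late windows and the dotted line is the median gene of each array. FAP climbs from the first treated array onward, and MCAM climbs less, with dips on day 1 and day 6. ENG climbs from day 2 after lower values at 4 h and day 1. AXL steps up at 4 h, NT5E stands out on day 12, and S100A4, PDGFRA and PDGFRB lie below the median gene throughout.

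Promoter sequences are shown for ENG, MCAM and AXL, so that the regions before genes with unlike courses can be compared. ENG rose from day 2 after lower values at 4 h and day 1, and AXL was already high at 4 h. MCAM was above the untreated array at every time and highest on the late arrays, with dips on day 1 and day 6. Each run is the 250 bases before a transcription start, read 5′ to 3′ on the strand of the gene, from RefSeq on GRCh38.p14. ENG lies at chr9:127854659-127854908 on the minus strand, MCAM at chr11:119317131-119317380 on the minus strand, and the AXL starts at chr19:41218973-41219222 (start 1) and chr19:41226505-41226754 (start 2) on the plus strand. Capitals mark every match, on either strand, to the AP-1 motif TGANTCA, the E-box CANNTG, the ZEB/SNAI box CAGGTG (which is one form of the E-box), the SMAD element CAGAC, the TEAD motif GGAATG and the SP1 motif GGGCGG.
ENG: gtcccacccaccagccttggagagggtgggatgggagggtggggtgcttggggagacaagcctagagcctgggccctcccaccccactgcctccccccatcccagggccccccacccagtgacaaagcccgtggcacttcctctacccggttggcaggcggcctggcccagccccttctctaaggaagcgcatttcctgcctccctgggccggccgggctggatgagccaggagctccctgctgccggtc
MCAM: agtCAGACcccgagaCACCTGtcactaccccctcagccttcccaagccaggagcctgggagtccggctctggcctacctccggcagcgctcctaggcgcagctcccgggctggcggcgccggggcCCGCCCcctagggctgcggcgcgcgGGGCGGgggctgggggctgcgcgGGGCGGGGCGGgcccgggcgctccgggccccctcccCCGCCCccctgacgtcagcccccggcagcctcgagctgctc
AXL start 1: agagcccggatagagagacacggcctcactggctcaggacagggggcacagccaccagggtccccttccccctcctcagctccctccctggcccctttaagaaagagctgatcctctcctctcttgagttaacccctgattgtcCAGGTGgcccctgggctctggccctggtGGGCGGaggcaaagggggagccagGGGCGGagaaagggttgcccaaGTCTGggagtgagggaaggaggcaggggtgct
AXL start 2: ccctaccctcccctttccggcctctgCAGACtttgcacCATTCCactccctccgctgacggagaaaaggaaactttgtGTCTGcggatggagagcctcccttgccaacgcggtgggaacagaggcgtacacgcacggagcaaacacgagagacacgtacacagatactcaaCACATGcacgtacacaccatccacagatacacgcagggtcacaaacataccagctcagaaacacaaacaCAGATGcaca

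The ENG run held 0 matches to the 6 motifs. The MCAM run held 1 SMAD element, 1 E-box that is also the ZEB/SNAI box, and 5 SP1 motifs, of which neighbouring ones can share bases. The run before AXL start 1 held 1 SMAD element, 1 E-box that is again the ZEB/SNAI box, and 2 SP1 motifs. That before start 2 differed, with 2 SMAD elements, 2 E-boxes that are not the ZEB/SNAI box, 1 TEAD motif and 0 SP1 motifs. Among 34788 distinct promoters of the same length, 38.0% held the SMAD element, 61.8% the E-box, 17.5% the ZEB/SNAI box, 42.6% the SP1 motif, 11.9% the TEAD motif and 6.59% the AP-1 motif. These are matches of letters and not measured binding. A promoter was matched for 8 of the 10 markers, with FAP and THY1 not among them.

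FAP encodes fibroblast activation protein, a serine protease anchored in the plasma membrane of activated fibroblasts. Its level was 7.01 in untreated cells, 8.22 at 4 h and 9.08 on day 1, then 9.85, 10.27 and 10.54 on days 2, 3 and 4, and 10.77, 11.02, 10.90 and 10.99 on days 5, 6, 8 and 12. Every array was higher than the one before it up to day 6, and the last 4 stayed close together, where in order of level day 12 differed from day 8 below it and from day 6 above it by less than the SD of the late arrays. The late arrays averaged 10.92 ± 0.11 (SD, n = 4) and the early arrays 8.10 ± 1.04 (n = 3), a difference of 2.82 (SE 0.36, adjusted p = 0.000454 in limma). FAP was also the only one of the 10 called in the middle window, where it averaged 10.22 ± 0.35 (n = 3) and lay 2.12 above the early arrays (SE 0.39, adjusted p = 0.00796). Of all genes, 1.78% were called higher and 1.02% lower between the middle and early windows.

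The late mean of FAP was 15.0-fold its level on the single untreated array, and day 1 was the first time at which the rise had reached the midpoint of the late change. Between the late and middle windows the FAP difference of 0.70 was not called (95% interval −0.09 to 1.49, adjusted p = 0.585), although the arrays of these windows did not overlap. Of 6 relatives of FAP among the prolyl peptidases, 0 were called in any of the 3 comparisons, and the late minus early differences of the 4 largest were 0.52 for DPP9, −0.31 for DPP6, −0.25 for DPP4 and −0.19 for PREP.

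ENG encodes endoglin, a co-receptor that binds ligands of the TGFβ and BMP family and is best known from endothelium and mesenchymal stromal cells. Its level was 5.44 in untreated cells, 4.98 at 4 h and 4.87 on day 1, then 5.85, 5.96 and 6.35 on days 2, 3 and 4, and 6.58, 6.75, 6.77 and 6.65 on days 5, 6, 8 and 12. The first treated arrays thus lay below the untreated one, and all arrays from day 2 on lay above it. The late arrays averaged 6.69 ± 0.09 (n = 4) and the early arrays 5.10 ± 0.31 (n = 3), a difference of 1.59 (SE 0.16, adjusted p = 0.000112).

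In the middle window ENG averaged 6.05 ± 0.27 (n = 3). It lay 0.96 above the early arrays with an adjusted p of 0.00768, just under the limit of 1 on the difference, and was called when the untreated, day 2 or day 3 array was left out, with differences of 1.13, 1.06 and 1.00. The late minus middle difference of 0.63 had a 95% interval of 0.28 to 0.99 and an adjusted p of 0.151. ENG first stood at least 1 above untreated cells on day 5 and reached the midpoint of its late change on day 4.

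Among the partners of endoglin, TGFβ and BMP ligands and receptors, 11 were measured, of which 4 were higher and 1 lower in the late window. TGFB2, a TGFβ ligand, averaged 7.34 ± 0.14 in the late window and 5.00 ± 0.52 in the early window, a difference of 2.34 (adjusted p = 5.68e-05). The type II BMP receptor gene BMPR2 rose by 1.17 and the type I TGFβ receptor gene TGFBR1 by 1.09. TGFBR2, outside the rule by which genes were named and given because it completes the count, rose by 1.02. Without the untreated array the TGFBR1 difference was 0.72 and that of TGFBR2 0.87, both short of the limit, and without day 12 that of TGFBR2 was 0.85.

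TGFBR3, which encodes betaglycan, the co-receptor most closely related to endoglin, moved the other way. It averaged 5.41 ± 0.05 in the late window and 7.29 ± 0.40 in the early window and fell by 1.88 (SE 0.23, adjusted p = 0.000309). Its level stood at 7.20 in untreated cells, 6.95 at 4 h and 7.72 on day 1, then at 6.56, 6.15 and 5.55 on days 2, 3 and 4, and at 5.48, 5.37, 5.40 and 5.40 on days 5, 6, 8 and 12. The arrays of the late and early windows did not overlap for either co-receptor.

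MCAM encodes a cell adhesion molecule of the immunoglobulin superfamily found on endothelium, pericytes and melanoma cells. Its level was 3.17 in untreated cells, 3.93 at 4 h and 3.70 on day 1, then 4.34, 4.51 and 4.89 on days 2, 3 and 4, and 5.47, 5.14, 5.54 and 5.54 on days 5, 6, 8 and 12. The untreated array was the lowest and the 4 late arrays were the highest. The late arrays averaged 5.42 ± 0.19 (n = 4) and the early arrays 3.60 ± 0.39 (n = 3), a difference of 1.83 (SE 0.19, adjusted p = 0.000142).

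The middle mean of MCAM was 4.58 ± 0.28 (n = 3), 0.98 above the early arrays with an adjusted p of 0.0155 and so under the limit on the difference. It was called without the 4 h, day 1, day 2 or day 3 array, with differences of 1.15, 1.03, 1.10 and 1.02. The late minus middle difference was 0.84 (95% interval 0.42 to 1.27, adjusted p = 0.105). MCAM passed 1 above untreated cells on day 2, and its late mean was 4.78-fold the untreated level. Day 2 was also the first array past the midpoint of its late change, at 4.34 against a midpoint of 4.29. This margin is smaller than the SD of the late arrays, 0.19, so the time of the midpoint is uncertain.

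Of 10 relatives and ligands of MCAM, 2 were higher and 0 lower in the late window. LGALS1, which encodes the secreted lectin galectin-1, rose by 1.65 (SE 0.26, adjusted p = 0.00148) to 6.80 ± 0.23, against 5.15 ± 0.71 in the early window. WNT5A, a secreted Wnt ligand, rose by 1.16, and without the day 1 array its difference of 0.85 fell short of the limit. The laminin chain gene LAMA5 differed by 0.83 and the adhesion gene ALCAM by 0.48, neither of them called.

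**Figure D2:**
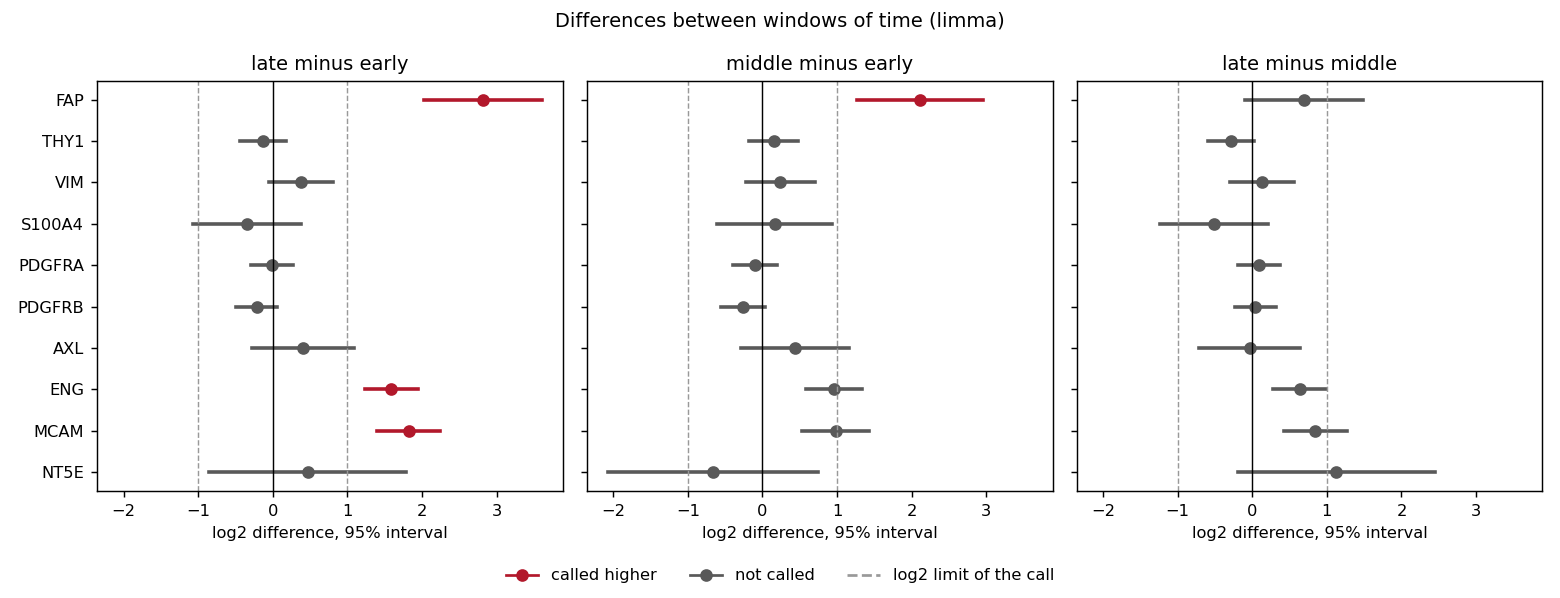
Log2 differences between windows of time (horizontal axis) for the 10 markers (vertical axis), as late minus early, middle minus early and late minus middle. Points are limma estimates with 95% intervals, red marks a call and dashed lines the limit of 1. FAP, ENG and MCAM are called late against early at 2.82, 1.59 and 1.83, FAP alone is called middle against early, and 0 of 10 are called late against middle, where NT5E has an interval of −0.19 to 2.45.

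Measured by overlap in place of a test, FAP, ENG and MCAM were also the markers whose late arrays all lay above all early arrays, as did 10.8% of all genes. For 0 of the 10 did the late arrays all lie below the early ones, which held for 13.1% of genes. None of the 10 was called between the late and middle windows, where 0.303% of all genes were higher and 0.0715% lower. FAP, ENG and MCAM stayed called late against early with each array left out in turn, with differences of 2.27 to 3.30, 1.48 to 1.76 and 1.61 to 1.99.

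AXL encodes a receptor tyrosine kinase of the TAM family, bound by the vitamin K-dependent ligand GAS6. Its level was 5.28 in untreated cells, 6.94 at 4 h and 6.58 on day 1, then 6.70, 6.79 and 6.62 on days 2, 3 and 4, and 6.63, 6.30, 6.88 and 6.86 on days 5, 6, 8 and 12. The untreated array was the lowest by 1.03, and the highest value was already reached at 4 h. The 9 treated arrays lay 1.03 to 1.66 above it, and AXL and FAP were the 2 markers at least 1 above untreated cells on all 9, against 0.723% of all genes.

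The comparison of windows, which places the 4 h and day 1 arrays with the untreated one, did not call AXL. The late arrays averaged 6.67 ± 0.27 (n = 4) and the early arrays 6.27 ± 0.87 (n = 3), with a difference of 0.40 (95% interval −0.28 to 1.08, adjusted p = 0.445). Without the untreated array that difference was −0.09. The step in AXL therefore rests on 1 untreated array. This array stood apart from the rest over all genes, with a median absolute deviation from the median of the arrays of 0.238, against 0.0994 to 0.162 on the treated arrays. That median is set mostly by treated arrays, so an effect of treatment would also set this array apart. Its part in the AXL difference was not tested.

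The other TAM receptors and the ligands gave 0 calls of 4 genes. GAS6 averaged 6.35 ± 0.42 in the late window and 5.53 ± 0.61 in the early window (difference 0.82, SE 0.27, adjusted p = 0.0664). Its lowest value, 4.85, was again on the untreated array and its highest, 6.88, on day 12. The receptor genes TYRO3 and MERTK differed by 0.36 and −0.32, and PROS1, the gene of the ligand protein S, by 0.29.

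**Figure D3:**
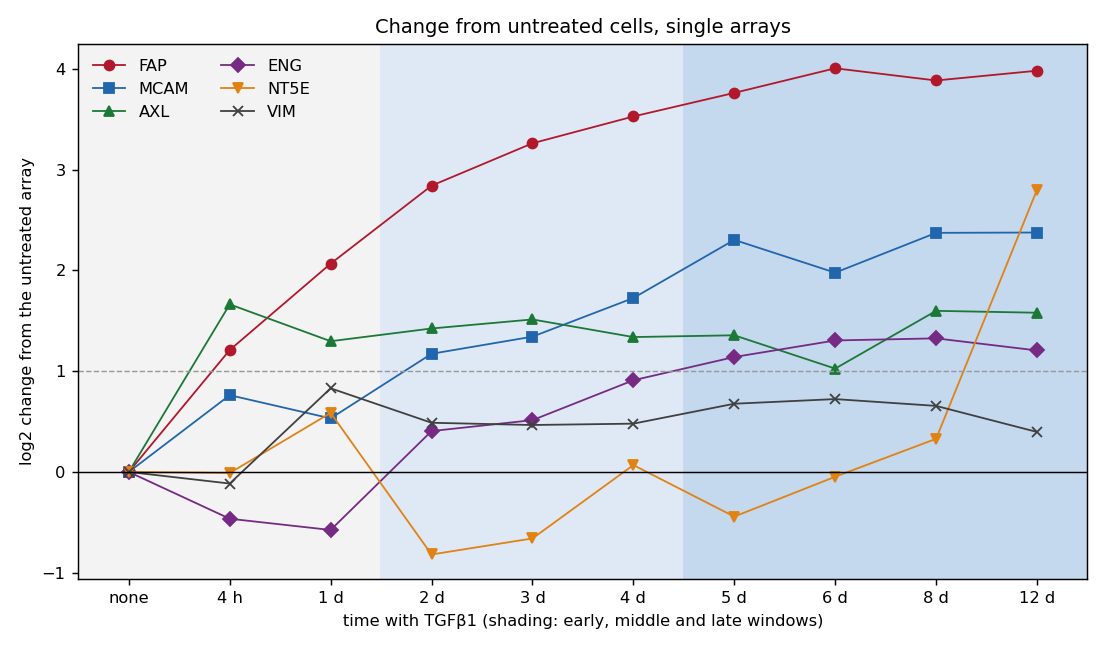
Log2 change from the untreated array (vertical axis) of FAP, MCAM, AXL, ENG, NT5E and VIM at each time with TGFβ1 (horizontal axis, not to scale), with 1 array per point and the limit of 1 dashed. AXL is at 1.66 at 4 h and stays between 1.03 and 1.60 afterwards, FAP reaches 4.01 on day 6, and NT5E stays under 1 until day 12, where it is at 2.80.

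Counted against the untreated array, with no test, FAP and AXL were at least 1 higher at 4 h (2 of 10, against 2.21% of all genes) and on day 1 (2 of 10, against 2.81%). On day 2 these were joined by MCAM and S100A4 (4 of 10, against 5.65%), where S100A4, at 2.65, still lay below the median gene of that array, 2.96. On days 3 and 4 the count was 3 of 10, with FAP, MCAM and AXL, against 5.34% and 5.14% of genes. On days 5, 6 and 8 it was 4 of 10, with ENG added, against 5.91%, 6.06% and 6.59%. On day 12 it was 5 of 10, with NT5E added, against 5.68%. At 4 h, 0 of the 10 were at least 1 lower, as 1.39% of all genes were.

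NT5E encodes an enzyme on the cell surface that converts extracellular AMP to adenosine. Its level was 5.09 in untreated cells, 5.08 at 4 h and 5.67 on day 1, then 4.27, 4.43 and 5.16 on days 2, 3 and 4, and 4.65, 5.04, 5.42 and 7.89 on days 5, 6, 8 and 12. Day 12 stood 2.21 above the next highest array, day 1, and the other 9 arrays did not separate by window. Only 14 genes, 0.0589% of all, were at least 1 above every other array on day 12. Among them NT5E ranked second after ANGPTL4, a secreted inhibitor of lipoprotein lipase, which stood 2.44 above its next highest array.

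The late arrays of NT5E averaged 5.75 ± 1.46 (n = 4) and the early arrays 5.28 ± 0.34 (n = 3), and the difference of 0.47 was not called (95% interval −0.85 to 1.79, adjusted p = 0.675). Without day 12 the late mean was 5.03 ± 0.39 and the difference −0.25. Day 12 exceeded the mean of days 5 to 8 by 2.85 for NT5E, whereas for the other 9 markers this gap lay between −0.29 for VIM and 0.43 for S100A4. With a single array at that time, the value has no replicate.

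In the adenosine pathway around NT5E, 1 of 13 genes was higher and 0 lower in the late window. This was ENPP1, an ectoenzyme that splits ATP to AMP, which averaged 2.93 ± 0.22 in the late window and 1.71 ± 0.60 in the early window (difference 1.22, SE 0.35, adjusted p = 0.0360). Its levels in untreated cells and at 4 h, 1.26 and 1.47, were below the lower quartile of genes, so the size of this difference is uncertain. The call was lost when any of 6 arrays was left out (untreated, 4 h, day 3, 5, 6 or 8), with differences of 0.99 to 1.24 and adjusted p of up to 0.131. The adenosine receptor genes ADORA2B and ADORA1 differed by −0.89 and 0.84 and the adenosine transporter gene SLC29A2 by −0.89, none of them reaching the limit.

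Regression on time in days and its square called 4 of the 10 markers higher and 0 lower, against 5.21% and 3.44% of all genes. The model explained most of the variance of MCAM (R2 0.930, adjusted p = 0.000246), FAP (R2 0.901, adjusted p = 0.000359), ENG (R2 0.889, adjusted p = 0.000959) and NT5E (R2 0.878, adjusted p = 0.000857). For MCAM, FAP and ENG the call was kept with each array left out. With a straight line in days, MCAM and ENG were still called (adjusted p = 0.0124 and 0.0365), FAP and NT5E were not (adjusted p = 0.0542 and 0.132), and 309 genes were called higher in place of 1240. For NT5E it was lost without day 12, where the adjusted p was 0.402 and the largest change from untreated cells −0.82. AXL, which changes in a step, had an R2 of 0.173 (adjusted p = 0.623).

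VIM encodes vimentin, the main intermediate filament protein of mesenchymal cells. Its level was 7.70 in untreated cells, 7.59 at 4 h and 8.53 on day 1, then 8.19, 8.17 and 8.18 on days 2, 3 and 4, and 8.38, 8.43, 8.36 and 8.10 on days 5, 6, 8 and 12. All arrays from day 1 on were above the untreated and 4 h arrays, and the highest was day 1. VIM was among the top genes of every array, at percentiles 94.7 to 97.9, the untreated one included. Its late mean of 8.32 ± 0.15 (n = 4) differed from the early mean of 7.94 ± 0.52 (n = 3) by 0.37, which was not called (95% interval −0.05 to 0.80, adjusted p = 0.243).

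Of 10 partners and other filament genes, 2 were higher and 0 lower late against early. LMNB1, which encodes lamin B1 of the nuclear lamina, rose by 1.20 (SE 0.21, adjusted p = 0.00303) to 4.66 ± 0.46, against 3.46 ± 0.17 in the early window. PLEC, which encodes the linker plectin, rose by 1.18 to 6.45 ± 0.17, against 5.26 ± 0.52, and without the untreated array its difference of 0.91 was under the limit. LMNA and INA differed by −0.51 and −0.29 and were not called.

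THY1 encodes a glycolipid-anchored surface glycoprotein of fibroblasts, neurons and thymocytes. Its level was 4.12 in untreated cells, 3.94 at 4 h and 4.22 on day 1, then 4.34, 4.01 and 4.40 on days 2, 3 and 4, and 4.19, 4.00, 3.76 and 3.92 on days 5, 6, 8 and 12. No neighbours in the order of these levels differed by more than the spread of the late arrays. The late mean of 3.97 ± 0.18 (n = 4) and the early mean of 4.10 ± 0.14 (n = 3) differed by −0.13 (95% interval −0.44 to 0.18, adjusted p = 0.605), so that the interval leaves out a change of 1 in either direction.

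S100A4, PDGFRA and PDGFRB lay below the median gene on all 10 arrays, and below the lower quartile of genes on 8, 6 and 9 of them. The median gene had 2.92 to 2.98 and the lower quartile 1.64 to 1.80. The other 7 markers lay above the median gene on every array.

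S100A4 encodes a calcium-binding protein also known as fibroblast-specific protein. Its level was 1.59 in untreated cells, 1.95 at 4 h and 1.05 on day 1, then 2.65, 1.02 and 1.41 on days 2, 3 and 4, and 1.02, 1.04, 1.17 and 1.5 on days 5, 6, 8 and 12. The highest array, day 2, lay between arrays of low value. The late mean of 1.18 ± 0.22 (n = 4) and the early mean of 1.53 ± 0.45 (n = 3) differed by −0.35 (95% interval −1.07 to 0.38, adjusted p = 0.549).

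Among 18 other S100 genes, 5 were lower and 0 higher in the late window. S100A7, the gene of psoriasin, fell by 3.09 (SE 0.40, adjusted p = 0.000503) to 1.27 ± 0.33, against 4.36 ± 1.17 in the early window. It lay below the lower quartile of genes on 3 of the 4 late arrays, where a level is hard to tell from background, so the size of its fall is uncertain. S100A8 and S100A9, which encode the subunits of calprotectin, fell by 2.69 and 2.44 (adjusted p = 0.000101 and 0.000259). S100A14 fell by 1.46, and S100P, the remaining call and outside the naming rule, by 1.28. The median difference of the 18 was −0.55, against −0.06 over all genes.

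PDGFRA and PDGFRB encode the receptor tyrosine kinases for platelet-derived growth factors, on which many fibroblasts and pericytes depend. PDGFRA was at 1.73, 1.81 and 1.52 on the untreated, 4 h and day 1 arrays, 1.66, 1.63 and 1.48 on days 2, 3 and 4, and 1.43, 1.75, 1.70 and 1.83 on days 5, 6, 8 and 12. The late mean of 1.68 ± 0.17 and the early mean of 1.69 ± 0.15 differed by −0.01 (95% interval −0.29 to 0.27, adjusted p = 0.969), and no neighbours in the order of levels differed by more than the spread of the late arrays.

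PDGFRB was at 1.89, 1.52 and 1.47 on the untreated, 4 h and day 1 arrays, 1.26, 1.51 and 1.35 on days 2, 3 and 4, and 1.38, 1.5, 1.37 and 1.40 on days 5, 6, 8 and 12. The untreated array was the highest, by 0.37. The late mean of 1.41 ± 0.06 and the early mean of 1.63 ± 0.23 differed by −0.21 (95% interval −0.49 to 0.06, adjusted p = 0.305).

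Of 10 PDGF ligands and related receptors, 1 was higher and 0 lower late against early. PDGFD, a ligand of PDGFRB, was at 2.80, 2.65 and 2.82 on the untreated, 4 h and day 1 arrays, 5.61, 5.63 and 5.44 on days 2, 3 and 4, and 5.29, 5.30, 4.81 and 3.28 on days 5, 6, 8 and 12. All arrays from day 2 on were above the early ones, with the highest values in the middle window and day 12 the lowest of the later arrays. It was called in both windows, by 1.91 in the late one (SE 0.38, adjusted p = 0.00595) and by 2.80 in the middle one. The ligand gene PDGFC differed by 0.86, PDGFA by 0.42 and the receptor gene CSF1R by 0.97, none of them reaching the limit. For CSF1R the rise fell within the early window, with 4.92 in untreated cells, 6.01 at 4 h and 7.45 on day 1. From day 2 on it lay at 6.94 to 7.43, with 1 array at each time.

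**Figure D4:**
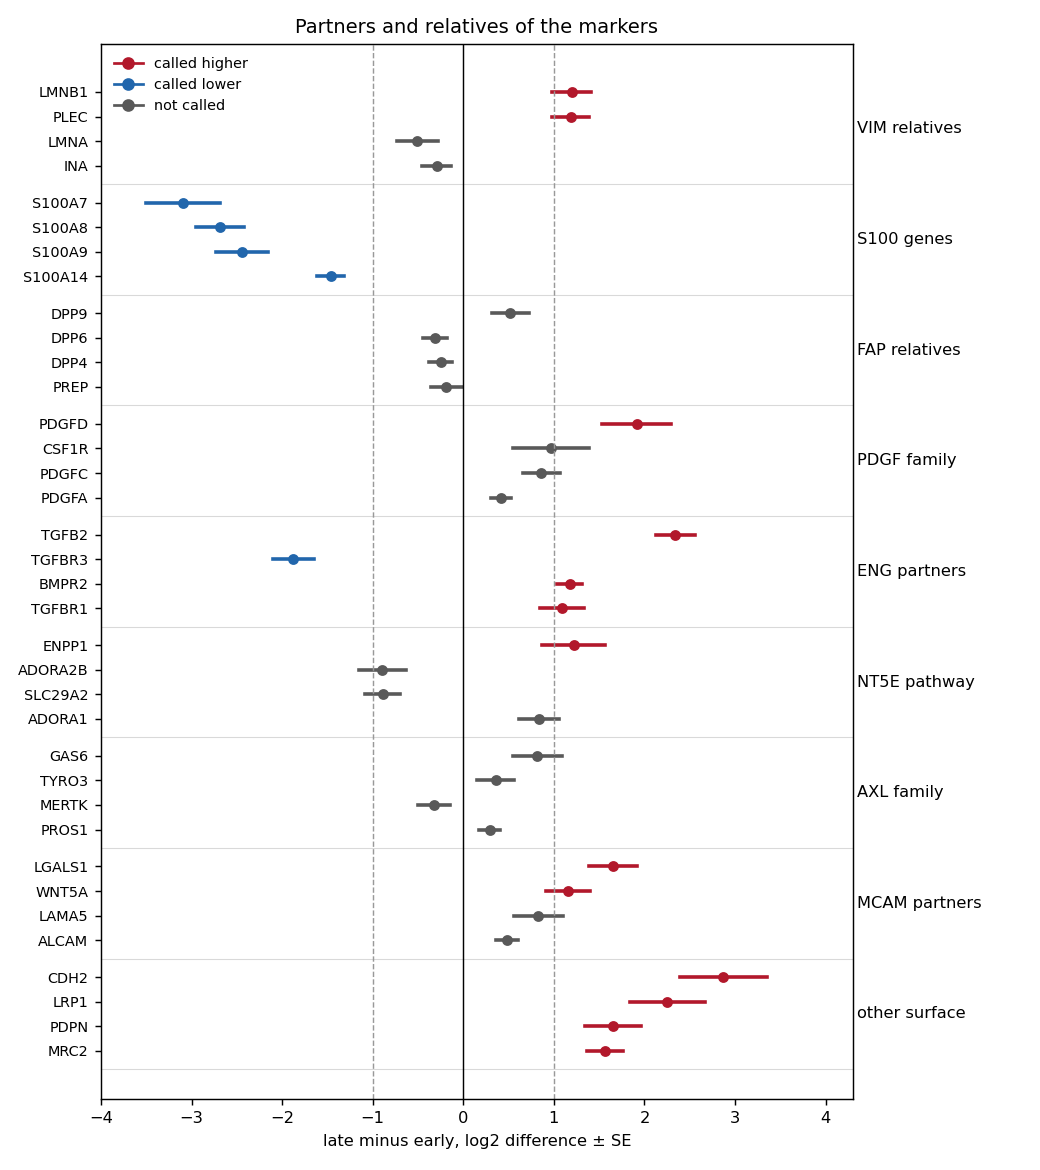
Late minus early log2 differences (horizontal axis, points) with their SE (bars) for the up to 4 genes with the largest difference in each list of partners and relatives (vertical axis, list names at right). Dashed lines mark the limit of 1, red and blue the genes called higher and lower. The S100 genes lie to the left, down to −3.09 for S100A7, and TGFB2 and TGFBR3 lie on opposite sides at 2.34 and −1.88. The relatives of FAP lie between −0.31 for DPP6 and 0.52 for DPP9, none of them called.

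Other surface proteins by which stromal cells are recognised gave 5 of 22 genes higher and 0 lower in the late window. CDH2, which encodes N-cadherin, had the largest difference, 2.87 (SE 0.48, adjusted p = 0.00211), with 7.69 ± 0.31 in the late window and 4.82 ± 1.38 in the early window. The endocytic receptor gene LRP1 rose by 2.25, the podoplanin gene PDPN by 1.65 and the collagen receptor gene MRC2 by 1.57. ANPEP, an aminopeptidase gene outside the naming rule, rose by 1.12, and the call was lost without the untreated, 4 h or day 12 array (differences 0.83, 1.02 and 0.99).

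Of 20 other fibroblast genes, mostly of the matrix, 5 were higher and 0 lower. POSTN, the periostin gene, rose by 5.43 (SE 0.60, adjusted p = 0.000173) to 7.90 ± 0.22, against 2.48 ± 1.14 in the early window. It lay at 1.75 in untreated cells, under the lower quartile of that array, and at 1.89 at 4 h, close to the background level of genes of other tissues, so the size of its rise is uncertain. FN1, the fibronectin gene, rose by 5.20, SPARC by 2.99 and DCN, the decorin gene, by 2.93, beside TAGLN, a smooth muscle gene outside the naming rule, by 2.46. The median difference of the 20 was 0.02 and that of the 22 surface genes 0.26, beside 0.39 for the 10 markers and −0.06 for all genes.

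The label of the cells was set against marker genes. Of 12 markers of mammary basal epithelium, 11 lay above the median gene on every array, KRT17 being the exception, and the mean of the list was 8.16 to 8.27 on the late arrays, 8.16 to 8.29 on the middle arrays and 7.34 to 8.27 on the early arrays. On this list 2 of 12 genes were called higher and 0 lower, both late and middle against early. The keratin gene KRT14 rose by 2.18 late against early (adjusted p = 0.0156), a call lost without the untreated or 4 h array (differences 1.65 and 1.78), and the integrin gene ITGB4 rose by 2.02 (adjusted p = 0.00543). Middle against early, the KRT14 call was lost without any of 8 arrays (adjusted p in limma of up to 0.117). The ITGB4 call there was lost without any of 4 arrays (adjusted p of up to 0.0816). Late against early, these epithelial markers thus rose along with FAP, ENG and MCAM, and their part in the result was not tested. Of 8 fibroblast markers, 6 lay below the median gene on every array (COL1A2, COL3A1, LUM, TCF21, PDGFRA and PDGFRB). Their list mean was 2.69 to 2.79 on the late arrays and 2.20 to 2.47 on the early arrays, with DCN the only member called. Below the median gene on every array were also 4 of 7 pericyte and smooth muscle markers, 4 of 6 endothelial, 5 of 6 blood cell and 2 of 6 luminal markers, and on these lists 0 genes were called late against early. Of 20 genes specific to other tissues, given as a gauge of background, 15 lay below the median gene on every array and 2 were called lower late against early, CGA by −1.54, with all 4 late values below the lower quartile, and TNNT2 by −1.01, which lost its call without any of 6 arrays.

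The genes whose values ran closest to each marker over the 10 arrays are given as a description, from 6317 genes that spanned at least 1 log2. For FAP they were LTBP1 (Pearson r 0.996), NTN4 (0.994) and PORCN (0.992). For ENG they were TOP2A (0.991), BUB1 (0.989) and CENPF (0.988), and for MCAM they were AADAT (0.989), CD276 (0.983) and PHF20 (0.978). All 10 points share 1 time course and each is 1 array.

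For AXL, where the untreated array is lowest by 1.03 and dominates, the closest were MFSD12 (0.982), EML3 (0.977) and AGPAT3 (0.972). For NT5E, where day 12 dominates, the closest were GALNT15 (0.934), GINS4 (0.920) and MPRIP (0.908). For S100A4 they were GRM5P1 (0.852), LAGE3 (0.842) and SKOR2 (0.837). S100A4 lay below the lower quartile of genes on 8 arrays, where a level is hard to tell from background. Among the markers themselves the highest values were 0.931 for FAP with MCAM, 0.900 for ENG with MCAM and 0.827 for FAP with ENG. The lowest was −0.821, for PDGFRB with AXL, genes with their highest and lowest value on the untreated array.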

How the data were processed

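RNA of MCF10A cells was hybridised to Affymetrix Human Gene 2.0 ST arrays, 1 per time. The authors deposited log2 expression values made by RMA (background correction, quantile normalization, median polish) with a custom mapping of probes to Entrez genes. Quantile normalization gives all arrays nearly the same distribution, so changes are relative to the other genes. The sources do not say whether cultures were pooled on an array. The arrays are not replicates, their number limits the precision, and p-values rest only on the spread between arrays at different times. That spread holds both noise, which may be technical, and change within a window or away from the fitted curve. Symbols came from the RefSeq gene table of GRCh38.p14 and named 23093 of 23786 genes.

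All genes were fitted in R 4.3.3 with limma 3.58.1, with 1 mean per window or with time in days and its square. The course was called where the adjusted p was no more than 0.05, the R2 0.6 or more and the change from the untreated array at its largest 1 or more. The spread had 7 residual degrees of freedom and a median residual SD of 0.200. Single arrays were compared without a test. The fits were tested on simulated data. Other scalings, filters, windows, limits and time models were tried, and each array was left out in turn. Figures and motif searches used Python 3.11.15, pandas 2.3.3, numpy 2.4.6 and matplotlib 3.10.9. The 10 markers, the lists and the windows were chosen with earlier results of these data known. From each list up to 4 genes with the largest late minus early difference were named, and others are marked. The midpoint is the earliest array whose change had come to the middle of the mean late change. Likeness was computed for markers that spanned at least 1 log2 over the arrays.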

Additional observations from a re-analysis of the deposited data

How the results depend on the processing

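Of 638 marker values under alternatives, 602 counted as the same, 7 gained and 2 lost a call, 19 changed sign and 8, single-array values at 4 h, moved. The same meant that direction and side of the limits were kept, apart from 22 values at 4 h. Those had changed by less than the SD of the late arrays, whichever side of the limit they were on. FAP, MCAM and ENG stayed called late against early in all. With a limit of 1.5, 284 genes were higher and 111 lower late against early, 152 and 62 middle against early, 25 and 6 late against middle, and 125 and 49 at 4 h, where 1 marker, AXL, was counted. With the mean of untreated and day 1 as the base at 4 h, the counts were 148 and 103 genes and 1 marker, again AXL. With day 4 in the late window, 0 genes were higher and 1 lower late against middle. A line in days called 2 markers and 309 and 121 genes, and FAP and NT5E lost the call (adjusted p 0.0542 and 0.132).

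With each array left out, the middle against early count of markers ranged from 1 to 3, and the counts of genes from 272 (without untreated) to 677 (without day 1) higher and from 151 (without day 4) to 415 (without day 1) lower. Late against middle they ranged from 2 (without day 3) to 85 higher and from 0 (without day 3) to 25 lower, and leaving out day 2, 3, 6, 8 or 12 moved them by over 1.5 times.

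Signs that changed all belonged to values not called, apart from the NT5E course. With each array left out, the late minus early difference of PDGFRA ranged from −0.093 to 0.071 (above 0 without untreated, 4 h or day 5), that of AXL from −0.090 (without untreated) to 0.74 and that of NT5E from −0.25 (without day 12) to 0.84. Middle minus early, AXL ranged from −0.055 (without untreated) to 0.78 and S100A4 from −0.31 (without day 2, and below 0 also without day 1) to 0.50. S100A4 was −0.24 with day 1 in the middle window. Late minus middle, PDGFRB ranged from −0.014 (without day 2) to 0.11 and AXL from −0.10 to 0.086 (above 0 without day 3 or 6), and PDGFRA was −0.0093 with day 4 in the late window. The largest change over the course ranged from −0.93 (without untreated, and below 0 also without day 2) to 1.06 for S100A4, from −0.36 to 0.45 (above 0 without untreated or day 8) for THY1, from −0.64 (without untreated) to 1.66 for AXL and from −0.82 (without day 12) to 2.81 for NT5E. Where the untreated array was left out, this largest change was counted from the 4 h array, so those values have another base. The cause of the changed signs was not tested. Detection over background was not used here, which limits what the low values of S100A4, PDGFRA and PDGFRB can show.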
